A study of Homo sapiens with 4 samples.

Results

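The genes of the prostaglandin E2 route were examined in A375, a human melanoma cell line, after exposure to a medium-chain fatty acid. The members were 10 genes listed by symbol, a choice made with earlier results of these data known: PLA2G4A, PTGS1, PTGS2, PTGES, PTGES2, PTGES3, PTGER2, PTGER4, HPGD and ABCC4. All 10 had a row among the 56832 genes of the deposited table. Per the labels, A375 cells of wild-type (WT) genotype were grown in DMEM with serum and treated in culture plates for 48 h with 1 mM octanoate (labelled OctA) or with isopropanol as the vehicle (labelled Veh). Each of the 2 groups had 2 libraries of total RNA. The study was set up to find genes raised by the treatment and gene signatures that move with it. The labels do not say whether the replicate libraries came from separate cultures, so the spread between these libraries may be technical. With 2 libraries per group, the limma p-values and intervals of a gene rest largely on the spread of other genes at similar levels. They do not measure the spread of its own libraries alone. The model is 1 cell line at 1 dose and 1 time.

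Prostaglandin E2 is a short-lived lipid signal made from arachidonic acid. Cytosolic phospholipase A2 (PLA2G4A) frees arachidonic acid from membrane phospholipids, the cyclooxygenases (PTGS1, the steady form, and PTGS2, the inducible form that aspirin-like drugs also block) turn it into prostaglandin H2, and terminal synthases convert that to prostaglandin E2. The transporter encoded by ABCC4 carries prostaglandins out of the cell, the receptors EP2 (PTGER2) and EP4 (PTGER4) raise cyclic AMP when prostaglandin E2 binds, and the dehydrogenase encoded by HPGD inactivates it. In melanoma and other tumours this lipid is known as a growth and immune-modulating signal. RNA levels alone were measured here, not the lipid or the proteins.

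Reads counted in genes, recovered as whole numbers from the deposited values, summed to about 67786000 to 78005000 per library (rounded). Of these, 62849 to 71399 lay in the 10 genes. Reads not assigned to a gene are not included. The chi-square statistic per degree of freedom over the tested genes was 5.29 for the vehicle pair and 7.28 for the octanoate pair, above the value near 1 that counting error gives, and each library was used as its own replicate. The melanocytic genes SOX10 (34072 to 41363 normalised counts) and MITF (2414 to 3533) were present in every library, whereas the pigment genes TYR (1.93 to 3.93) and MLANA (34.9 to 52.0) were low. The summed level of the 8 melanocyte markers was 45149 to 49400 in vehicle and 38666 to 43758 in octanoate. The 5 macrophage markers summed to 48.4 to 57.9 in vehicle and 67.2 to 67.4 in octanoate, with PTPRC at 1.93 to 10.8, AIF1 at 0 to 1.08, CD163 at 0 to 1.94 and CD14 at 11.6 to 18.3. CSF1R, the most abundant of them, stood at 29.4 and 26.2 in vehicle and 47.2 and 41.2 in octanoate (log2 difference 0.65, limma adjusted p 0.0798). The 4 endothelial markers summed to 576 to 580 in vehicle and 787 to 792 in octanoate, the 5 fibroblast markers to 1314 to 1316 and 1106 to 1121, and the 4 keratinocyte markers to 5673 to 6703 and 4787 to 6441. KRT1 alone among these markers had no read in any library, which allows up to 3 reads per library. The markers called lower by limma were KRT14 (log2 difference -2.08), S100B (-1.12), COL1A2 (-0.99), COL1A1 (-0.69) and MITF (-0.48), and those called higher were PECAM1 (0.95), PMEL (0.55) and VWF (0.50), with adjusted p-values from 2.40e-13 for KRT14 to 0.0479 for VWF. SOX10 makes up most of the melanocyte sum. KRT10, at 4566 to 6173 normalised counts and not called, makes up most of the keratinocyte sum, whereas KRT5 stood at 2.89 to 12.8. The part of these marker shifts in the results below was not tested. In bulk RNA, fewer cells with a transcript and less of it per cell cannot be told apart.

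Members called higher were enzymes of prostaglandin E2 synthesis and the exporter. PTGS2 and PTGES, the inducible cyclooxygenase and the inducible terminal synthase, had mean normalised counts 3.07 and 2.80 times as high under octanoate as in vehicle. PLA2G4A and PTGS1 were 1.53 and 1.41 times as high, and the exporter ABCC4 1.18 times as high. These 5 of the 10 members were called higher and 0 were called lower by limma at a Benjamini-Hochberg adjusted p under 0.05, where 16.2% of the 20250 genes tested were called higher and 29.9% in either direction. The share called in either direction was larger at the levels of these 5. It was 38.6% for means from 100 to 1000 and 37.9% from 1000 to 10000. With edgeR's quasi-likelihood test and with DESeq2 on the recovered reads 1 member, PTGES3, was called lower, and the unadjusted limma p of PTGES3 was 0.0361. The 2 receptors, HPGD, PTGES2 and PTGES3 did not pass the limma test. All 10 members passed the filter on low values, a mean of at least 10 normalised counts over the 4 libraries, PTGER2 only through its octanoate libraries. The median log2 difference was 0.37 over the 10 members and 0.24 over the 9 without PTGER2, against 0.01 for all genes tested, and is given as a description only. Values are read counts per gene divided by 1 size factor per library, and log2 differences are of log2(normalised count + 1), octanoate minus vehicle.

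**Figure D1:**
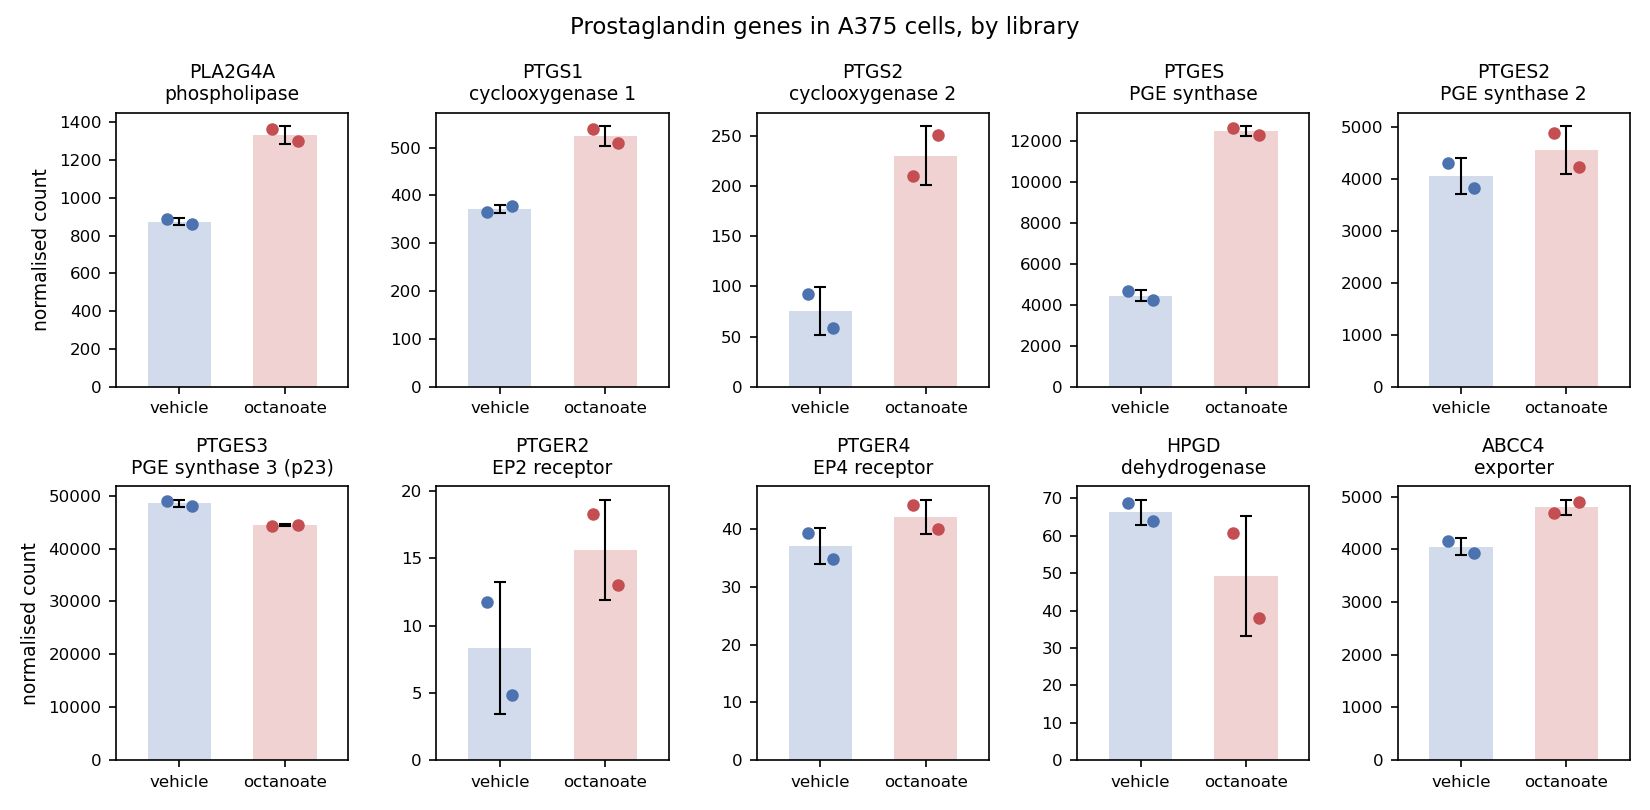
Normalised count of each of the 10 genes (vertical axis, from 0, a different scale in each panel) in the vehicle and octanoate groups. Points are single libraries, bars are means and whiskers are 1 SD (n = 2 per group). The octanoate points of PLA2G4A, PTGS1, PTGS2, PTGES and ABCC4 lie above the vehicle points, and those of PTGES2 overlap them.

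The sequences upstream of the 4 enzyme genes called higher are shown, a choice made after the calls were seen. They are 250 bases ending at the base before the RefSeq start (GRCh38.p14), written 5′ to 3′ on the strand of the gene. The windows are chr1:186828699-186828948 (plus strand) for PLA2G4A, chr9:122370283-122370532 (plus) for PTGS1, chr1:186680424-186680673 (minus) for PTGS2 and chr9:129753043-129753292 (minus) for PTGES. For PTGS1, which has more than 1 RefSeq start in the table, the most upstream is shown. Capitals mark every match, on either strand, to 9 motifs searched: the GC box GGGCGG, the cyclic AMP response core TGACG and the full element TGACGTCA, the E-box CACGTG, the AP-1 site TGANTCA, the TATA box TATAAA, the EGR1 site GCGNGGGCG, the NF-kappaB consensus and the PPAR direct repeat. The core TGACG is part of the full element TGACGTCA, and the EGR1 site can overlap a GC box.
PLA2G4A: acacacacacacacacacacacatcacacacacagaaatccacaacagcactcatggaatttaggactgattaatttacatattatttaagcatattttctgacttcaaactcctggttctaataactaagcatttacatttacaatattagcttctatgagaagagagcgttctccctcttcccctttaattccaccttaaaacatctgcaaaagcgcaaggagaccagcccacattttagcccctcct
PTGS1: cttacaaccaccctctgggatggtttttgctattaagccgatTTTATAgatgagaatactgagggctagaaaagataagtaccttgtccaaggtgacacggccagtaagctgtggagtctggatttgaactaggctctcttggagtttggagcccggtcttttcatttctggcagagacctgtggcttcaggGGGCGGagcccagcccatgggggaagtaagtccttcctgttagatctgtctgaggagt
PTGS2: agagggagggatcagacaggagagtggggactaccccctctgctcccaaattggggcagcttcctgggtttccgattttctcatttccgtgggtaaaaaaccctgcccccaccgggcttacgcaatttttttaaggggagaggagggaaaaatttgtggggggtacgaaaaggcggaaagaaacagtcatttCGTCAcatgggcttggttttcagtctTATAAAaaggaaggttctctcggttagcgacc
PTGES: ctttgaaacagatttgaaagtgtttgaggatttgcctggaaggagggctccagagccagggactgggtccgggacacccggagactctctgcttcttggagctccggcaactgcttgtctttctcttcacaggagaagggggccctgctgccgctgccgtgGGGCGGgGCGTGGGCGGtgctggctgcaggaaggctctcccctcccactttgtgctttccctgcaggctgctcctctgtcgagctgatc

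The PTGS2 window held a TATA box beginning 32 bases upstream of the start and a cyclic AMP response core beginning 58 bases upstream. Of 35116 promoter windows of the same length, 10.7% held a TATA box and 21.2% that core. The PTGES window held GC boxes beginning 89 and 78 bases upstream, and an EGR1 site beginning 82 bases upstream that overlaps the second of them. GC boxes were found in 42.6% of all windows and the EGR1 site in 8.42%. The NF-kappaB consensus was found in 5.21% of them and the PPAR repeat in 0.017%. The PTGS1 window had a GC box beginning 58 bases upstream and a TATA box in reverse orientation beginning 208 bases upstream. The PLA2G4A window, 38.8% G or C against a median of 58.0% over all windows, matched none of the 9 motifs. Windows of other members held the same motifs. The cyclic AMP response core was in those of ABCC4, HPGD, PTGES3 and PTGER2, of which limma called only ABCC4. The EGR1 site was in those of PTGES2 and PTGER2, and GC boxes in those of PTGES2, PTGES3, PTGER2, PTGER4 and HPGD, none of them called. No motif was found in all 4 windows shown, and a match in letters is a description of the sequence only.

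The supply of arachidonic acid begins with PLA2G4A, at chr1:186828953-186988981 on the plus strand (GENCODE 29, GRCh38; the authors' build is hg38). Its normalised counts were 888 and 859 in vehicle and 1366 and 1299 in octanoate. The octanoate libraries were both above the vehicle libraries, with a gap many times the spread within either group. The means were 874 ± 20.5 and 1333 ± 47.0 (SD, n = 2 each), and limma gave a log2 difference of 0.61 with a standard error of 0.08 (adjusted p 9.06e-07). Larger rises were found for 8.17% of the tested genes.

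PTGS1 (chr9:122370530-122395703, plus strand) encodes the cyclooxygenase that many tissues make steadily. Its normalised counts were 366 and 378 in vehicle and 539 and 509 in octanoate. The groups did not overlap. From means of 372 ± 8.29 and 524 ± 21.0 (SD, n = 2 each), the log2 difference was 0.49 (SE 0.10, limma adjusted p 0.000370). A larger rise was found for 11.4% of the tested genes.

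PTGS2 (chr1:186671791-186680427, minus strand) encodes the cyclooxygenase that cells switch on after cytokines, growth factors and stress. Its normalised counts were 92.3 and 58.1 in vehicle and 210 and 251 in octanoate, from 94, 60, 218 and 232 reads. The lower octanoate library held more than double the higher vehicle library. From means of 75.2 ± 24.1 and 231 ± 29.4 (SD, n = 2 each), the log2 difference was 1.64 (95% interval 1.26 to 2.02, limma adjusted p 2.16e-07). Only 0.686% of the tested genes had a larger rise. Without an intensity trend in the variance prior, the limma adjusted p of PTGS2 was 0.0561. The standard error of its log2 difference was 0.18 in the main limma fit and 0.27 without the trend.

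Per kilobase of exon, PTGS1 was the more abundant cyclooxygenase transcript in all 4 libraries. PTGS1 stood at 63.2 and 65.2 normalised counts per kilobase in vehicle and 93.1 and 88.0 in octanoate. PTGS2 stood at 17.5 and 11.03 in vehicle and 39.8 and 47.7 in octanoate. The level of PTGS2 relative to PTGS1 was thus 0.277 and 0.169 in vehicle and 0.428 and 0.543 in octanoate. PTGS2 made up 21.7% and 14.5% of the summed cyclooxygenase level in vehicle and 29.96% and 35.2% in octanoate. The sum itself was 80.7 and 76.3 per kilobase in vehicle and 133 and 136 in octanoate, higher in both octanoate libraries. These ratios are given as a description and were not tested.

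PTGES (chr9:129738331-129753047, minus strand) encodes microsomal prostaglandin E synthase 1, the inducible terminal enzyme that works together with cyclooxygenase 2. Its normalised counts were 4651 and 4251 in vehicle and 12655 and 12298 in octanoate. Both octanoate libraries lay far above both vehicle libraries. The means were 4451 ± 282 and 12476 ± 252 (SD, n = 2 each), and limma gave a log2 difference of 1.49 with a 95% interval from 1.37 to 1.61 (adjusted p 1.91e-15). Among the 7437 tested genes with a mean from 1000 to 10000 normalised counts, 22 had a log2 difference at least as large as that of PTGES, PTGES itself included. PTGES2, PLA2G4A and ABCC4 lie in the same range of means.

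**Figure D2:**
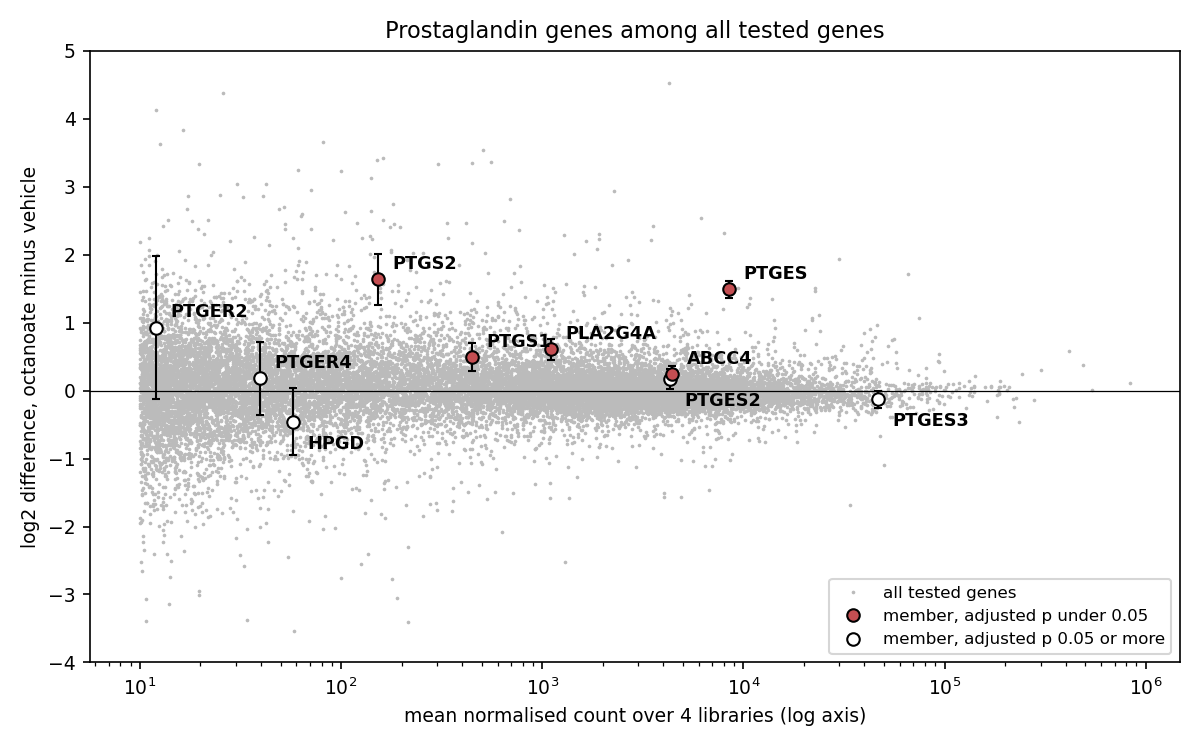
Log2 difference (octanoate minus vehicle, vertical axis) against the mean normalised count over the 4 libraries (horizontal log axis) for the 20250 tested genes in grey and the 10 members as labelled circles with 95% intervals. Filled circles have a limma adjusted p under 0.05. PTGES (1.49) and PTGS2 (1.64) lie at the upper edge of the grey cloud at their levels, and the intervals widen toward PTGER2 at the low end. A further 2 genes lie outside the plotted range.

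The other E synthase genes did not pass the test. PTGES2 (chr9:128120693-128128462, minus strand) encodes a membrane-associated synthase that is made steadily. Its normalised counts were 4296 and 3814 in vehicle and 4877 and 4224 in octanoate. The second octanoate library lay below the first vehicle library, so the groups overlapped. The log2 difference of 0.17 (95% interval 0.02 to 0.31) did not pass the test (limma adjusted p 0.0811). It rested on single libraries: 0.25 without vehicle 1 (adjusted p 0.0370), 0.27 without octanoate 2 (adjusted p 0.00734), 0.08 without vehicle 2 and 0.06 without octanoate 1, all by limma. With the replicate number as a block the limma adjusted p was 0.00135.

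PTGES3 (chr12:56663341-56688408, minus strand) encodes the cytosolic synthase, a protein better known as p23, a cochaperone of HSP90. Its normalised counts were 49061 and 48074 in vehicle and 44269 and 44539 in octanoate. Both octanoate libraries were lower, a change in the mean of -8.57%. The log2 difference was -0.13 (SE 0.06, limma adjusted p 0.0991). This value sits at the edge of the threshold: the adjusted p was 0.0489 with edgeR, 0.0151 with DESeq2, 0.0455 with TMM rescaling, 0.0239 with equal column totals and 0.00796 with the replicate block. In GENCODE 29, PTGES3 transcripts share up to 483 bases at 98.3% identity with PTGES3P1 and 482 bases with PTGES3P3, so its count is uncertain. No shared stretch of at least 100 bases at 95% identity was found between any of the other 9 members and another gene, and no exon of the 10 members overlaps an exon of another gene.

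Per kilobase of exon, PTGES3 remained the most abundant of the 3 E synthase transcripts in every library, at 14434 and 14144 in vehicle and 13024 and 13104 in octanoate. PTGES stood at 2453 and 2242 in vehicle and 6674 and 6486 in octanoate, and PTGES2 at 1414 and 1255 in vehicle and 1605 and 1390 in octanoate. The PTGES level was 1.74 and 1.79 times that of PTGES2 in the vehicle libraries and 4.16 and 4.67 times in the octanoate libraries. Against PTGES3, PTGES stood at 0.170 and 0.159 in vehicle and 0.512 and 0.495 in octanoate. The exon lengths are the union of all exons in GENCODE 29, and the isoforms that A375 cells use could differ from it.

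**Figure D3:**
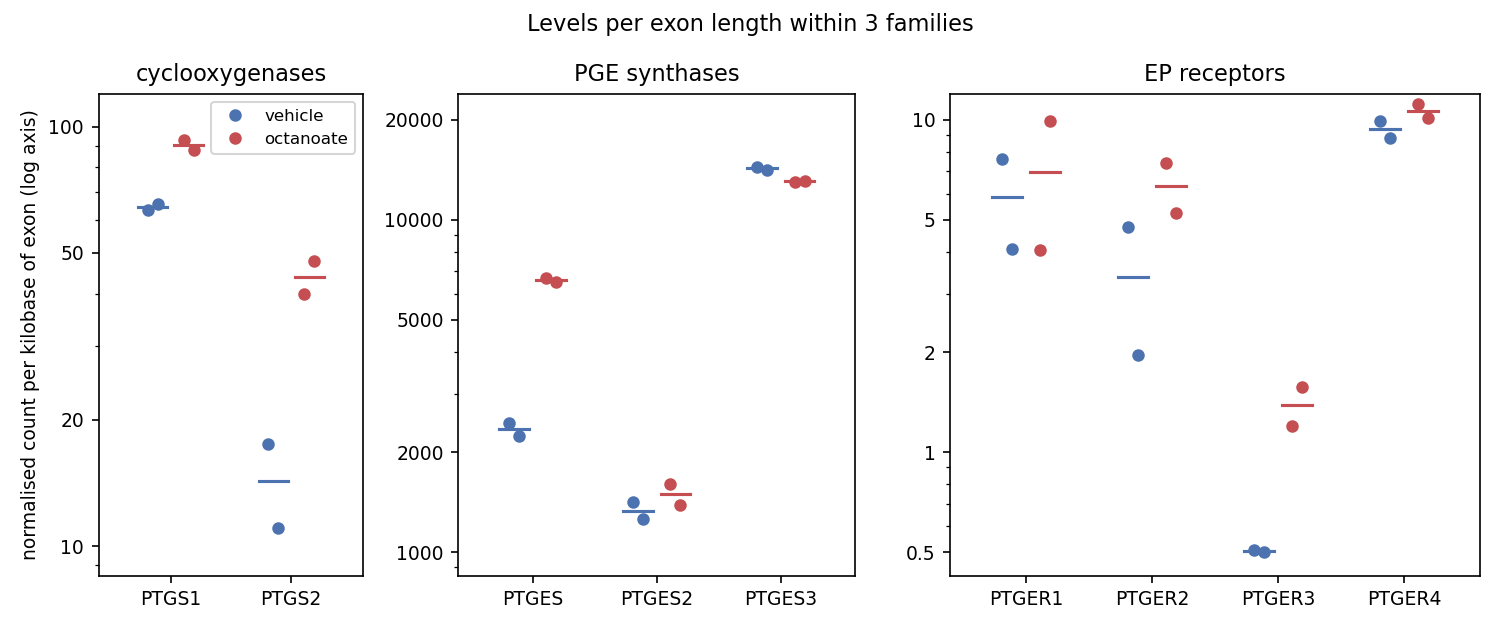
Normalised count per kilobase of exon (vertical log axis, a different range in each panel) for the cyclooxygenases, the E synthases and the 4 receptors for prostaglandin E2. Points are single libraries (blue vehicle, red octanoate) and short lines are means (n = 2 per group). PTGES moves from beside PTGES2 toward PTGES3, while every receptor stays at or below 11.2 per kilobase.

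Per kilobase of exon, both receptors stood below PLA2G4A, the cyclooxygenases and the E synthases in each library. PTGER4 (chr5:40679498-40693735, plus strand), which encodes EP4, had 39.3 and 34.9 normalised counts in vehicle and 44.3 and 40.1 in octanoate. The groups did not overlap, but the lower octanoate value was less than 1 count above the higher vehicle value. The log2 difference was 0.18 with a 95% interval from -0.35 to 0.72 (limma adjusted p 0.651), so no change was detectable at this depth. The gene body overlaps that of TTC33 on the opposite strand, with no shared exon bases.

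PTGER2 (chr14:52314305-52328606, plus strand), which encodes EP2, had 11.8 and 4.84 normalised counts in vehicle and 18.3 and 13.0 in octanoate, from 12, 5, 19 and 12 reads. Both octanoate values were the higher ones, and the first vehicle library came close to the second octanoate library. The log2 difference was 0.93 with a 95% interval from -0.12 to 1.98 (limma adjusted p 0.180). It was 0.36 without vehicle 2 and 1.49 without vehicle 1. Among tested genes with a mean from 10 to 30, as for PTGER2, 9.06% were called, against 37.9% from 1000 to 10000.

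The remaining receptors for prostaglandin E2, which were chosen after their values were seen to complete the family, were under the filter. PTGER1 had 10.8 and 5.81 normalised counts in vehicle and 5.78 and 14.1 in octanoate. PTGER3, which encodes the receptor EP3 that lowers cyclic AMP, had 4.91 and 4.84 in vehicle and 11.6 and 15.2 in octanoate. Per kilobase of exon, the mean levels in vehicle ran from PTGER4 at 9.36 through PTGER1 at 5.84 and PTGER2 at 3.36 to PTGER3 at 0.505. PTGER1 and PTGER2 overlapped in their library values and could not be ordered. In octanoate the means were 10.7, 6.99, 6.33 and 1.38 in the same order.

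HPGD (chr4:174490177-174523154, minus strand), which encodes the dehydrogenase that begins the inactivation of prostaglandin E2, had 68.7 and 63.9 normalised counts in vehicle and 60.6 and 37.9 in octanoate. Both octanoate values were lower, the first of them by a few counts only. The log2 difference was -0.46 with a 95% interval from -0.95 to 0.04 (limma adjusted p 0.160). It rested on octanoate 2: the limma log2 difference was -0.13 without that library (adjusted p 0.807) and -0.79 without octanoate 1 (adjusted p 0.0349).

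ABCC4 (chr13:95019829-95301475, minus strand), which encodes the exporter also called MRP4, had 4163 and 3932 normalised counts in vehicle and 4686 and 4898 in octanoate. The octanoate libraries were both above the vehicle libraries. From means of 4047 ± 163 and 4792 ± 150 (SD, n = 2 each), the log2 difference was 0.24 (SE 0.06, limma adjusted p 0.00319). A larger rise was found for 23.6% of the tested genes. Without vehicle 2 the adjusted p was 0.0535, without an intensity trend 0.126 and with no filter on low values 0.0668, all by limma. Per kilobase of exon, ABCC4 stood at 482 and 455 in vehicle and 543 and 567 in octanoate, while HPGD stood between 6.86 and 12.4 over the 4 libraries.

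The groups did not overlap for 9 of the 10 members, all but PTGES2, where 63.1% of all tested genes showed no overlap and 32.6% showed none with octanoate the higher. In the authors' deposited table, 6 of the 10 members had an adjusted p under 0.05, 5 of them higher and 1 lower, where 12.9% of the 33533 genes listed did, 6.89% higher and 6.01% lower. Those 33533 genes are a wider set than the 20250 tested by limma, so the 2 sets of shares are not alike. In the authors' deposited table the log2 fold change was 1.49 for PTGES, 1.62 for PTGS2, 0.61 for PLA2G4A, 0.50 for PTGS1 and 0.24 for ABCC4. The lower call in the authors' deposited table was PTGES3, with a log2 fold change of -0.13 and an adjusted p of 0.0404.

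The wider pathway was read from 7 lists of related genes, which together held 82 genes, 61 of them tested. By limma, 20 rose and 3 fell, where 16.2% of all tested genes were called higher and 13.7% lower, and the median log2 difference of those tested was 0.12. That median includes PTGIR, which passed the filter on low values only through its octanoate libraries. The lists were chosen with earlier results of these data known, so their counts describe the lists and support no direction. Among 16 other phospholipases, 8 were tested and 1 was called: PLAAT3, listed under its older symbol PLA2G16, which encodes a phospholipase of fat cells, rose from a mean of 4176 ± 139 to 6093 ± 139 (SD, n = 2 each; log2 difference 0.54, limma adjusted p 1.10e-07). The calcium-independent phospholipase gene PLA2G6 stood at 412 and 422 in vehicle and 446 and 452 in octanoate and did not pass the test.

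Of the other prostanoid synthases, 7 of 9 were tested and 2 were called, both higher. AKR1C3, which encodes a synthase that makes prostaglandin F2alpha and also reduces steroids, rose from a mean of 1109 ± 21.3 to 1788 ± 56.4 (SD, n = 2 each; log2 difference 0.69, limma adjusted p 4.85e-08), a count that is uncertain because AKR1C3 has close paralogs. AKR1B1, which encodes aldose reductase, another source of prostaglandin F2alpha, had a log2 difference of 0.25 (limma adjusted p 0.00159). The prostaglandin D synthase genes PTGDS and HPGDS had at most 3.25 normalised counts in any library. The thromboxane synthase gene TBXAS1 stood at 474 and 387 in vehicle and 547 and 462 in octanoate, with overlapping groups.

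Breakdown and transport genes numbered 8, all tested, with 2 called higher. ABCC1, which encodes a related exporter, had a log2 difference of 0.26 (limma adjusted p 0.00203), and PTGR1, which encodes a reductase of the breakdown route, one of 0.19 (limma adjusted p 0.0286). The uptake transporter gene SLCO2A1 had 10.6 to 13.6 normalised counts. Of 8 other prostanoid receptor genes, 5 were tested and 0 were called by limma at an adjusted p under 0.05. At an unadjusted p under 0.05 there were 2. PTGIR, for the prostacyclin receptor, stood at 7.85 and 8.72 normalised counts in vehicle and 15.4 and 21.7 in octanoate (log2 difference 1.06, p 0.0291), and it passed the filter only through its octanoate libraries. The other was PTGDR2 (-0.58, p 0.0288) for a prostaglandin D2 receptor, whose exons overlap those of CCDC86. Of the 13 lipoxygenase genes, 7 were tested and 2 were called higher: LTA4H, which encodes leukotriene A4 hydrolase (log2 difference 0.20, limma adjusted p 0.00858), and ALOXE3 (1.04, limma adjusted p 0.0115), chosen after its values were seen, at 17.4 to 47.2 normalised counts. LTA4H shares exon bases with antisense genes. ALOX5, which encodes the enzyme that opens the leukotriene branch, had at most 2.89 normalised counts.

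Genes that set the supply of arachidonic acid were called in both directions, 4 higher and 2 lower of 12 (over all tested genes 16.2% higher and 13.7% lower), with a median log2 difference of -0.09. ACSL4, which activates arachidonic acid to its CoA ester, had a log2 difference of 0.53 (limma adjusted p 6.53e-08). MGLL, whose lipase can free arachidonic acid from a monoglyceride, rose by 0.50 (limma adjusted p 1.48e-06). LPCAT3, which returns polyunsaturated fatty acids to phospholipids, rose by 0.28 (limma adjusted p 0.00213), and DAGLB, which encodes a diacylglycerol lipase, by 0.26 (limma adjusted p 0.00593). FADS2, the desaturase at the head of arachidonic acid synthesis, had a log2 difference of -0.67 (limma adjusted p 4.95e-08), and the acyltransferase gene LPCAT2 one of -0.54 (limma adjusted p 7.55e-08). In GENCODE 29 exons of LPCAT3, FADS2, DAGLB, LPCAT2 and ACSL4 overlap those of other genes, LPCAT3 by 3100 bases with EMG1 on the opposite strand, so these counts are uncertain.

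**Figure D4:**
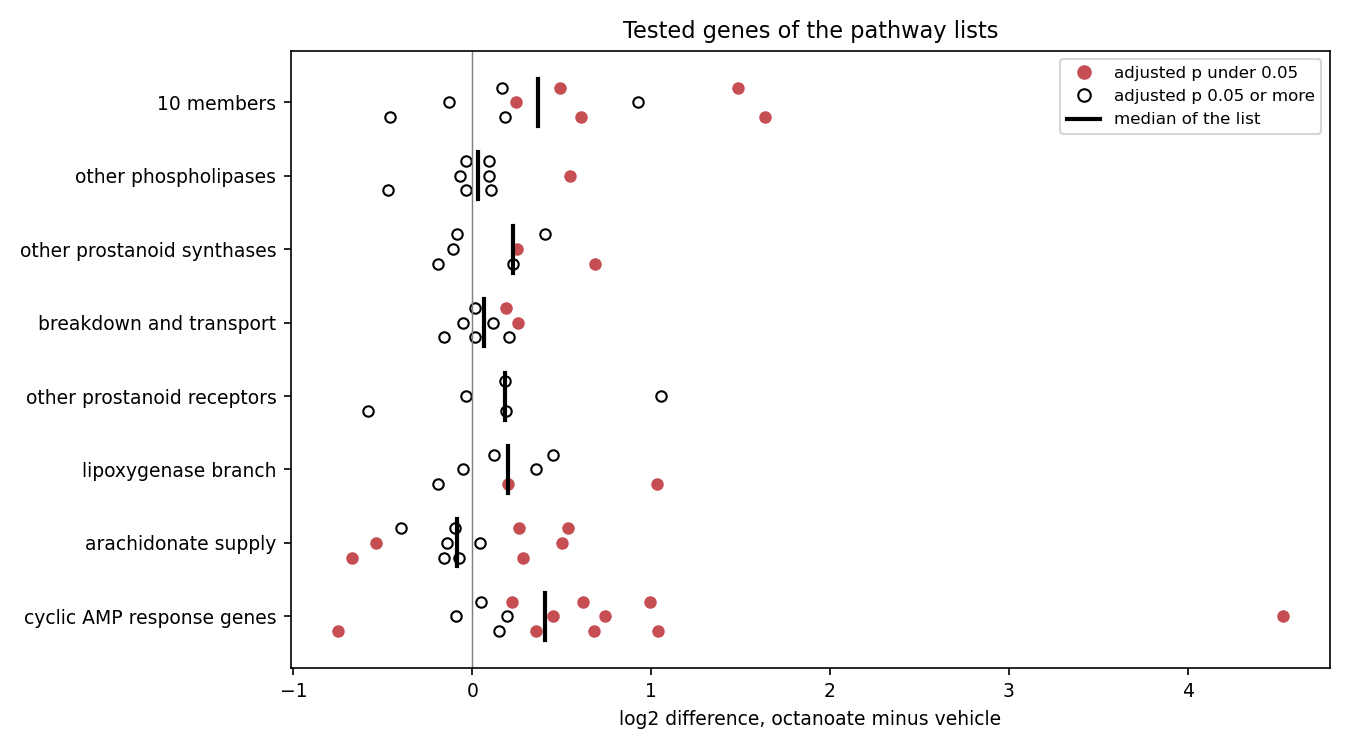
Log2 difference (octanoate minus vehicle, horizontal axis) of every tested gene in the 10 members and the 7 pathway lists (rows; vertical scatter within a row only separates the points). Filled red points have a limma adjusted p under 0.05, open points do not, and black bars are list medians. The members' row (median 0.37, or 0.24 without PTGER2) has its filled points to the right of 0. The supply row has them on both sides, and the point at 4.53 is AREG.

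Genes known to respond to cyclic AMP, the second messenger of EP2 and EP4, were read from a list of 16, of which 14 were tested, 9 were called higher and 1 lower (over all tested genes 16.2% higher and 13.7% lower), with a median log2 difference of 0.41. This list too was drawn up with earlier results known, AREG included. RGS2, a brake on G protein signals, rose from a mean of 2977 ± 19.8 to 5932 ± 73.4 (SD, n = 2 each; log2 difference 0.99, limma adjusted p 3.02e-12). NR4A1, an orphan nuclear receptor gene, rose by 1.04 (limma adjusted p 4.53e-12), and CREM, a cyclic AMP response modulator, by 0.62 (limma adjusted p 2.99e-08). The phosphodiesterase genes split: PDE4D rose by 0.68 (limma adjusted p 1.77e-08), while PDE4B had a log2 difference of -0.75 (limma adjusted p 2.33e-07). AREG, which encodes amphiregulin, had the highest log2 difference of the list at 4.53 (limma adjusted p 6.40e-22). FOS, at 335 and 293 in vehicle and 382 and 336 in octanoate, did not pass the test, and CRTC2 and FOSB did not either. These genes answer to other signals as well, and no part of the prostaglandin route in their values was tested. Exons of NR4A1, CREM and PDE4D overlap genes on the opposite strand in GENCODE 29, and whether counting used strand is not given in the sources used here.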

How the data were processed

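RNA was extracted with a Zymo kit and libraries were made with the NEBNext Ultra kit, per the labels' protocols. The submitters' processing notes name bcl2fastq 2.17, Trim Galore, STAR 2.4, Picard, HTSeq 0.9.1, DESeq2 and build hg38. Values in the larger deposited file are a signal, the read count of a gene divided by a DESeq2 size factor, per the file's name. All positive values (100%) were whole multiples of the library's smallest, within 0.01 of a read, which gave the reads. The authors' deposited second table holds log2 fold changes, a test score and p-values.

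Values were analysed as log2(normalised count + 1) with limma 3.58.1 (R 4.3.3), with treatment as the term, an intensity trend, genes with a mean of at least 10, two-sided tests and Benjamini-Hochberg adjustment over all 20250 genes tested. edgeR 4.0.16 and DESeq2 1.42.0 were run on the recovered reads. The main limma fit and the edgeR and DESeq2 fits were run on simulated counts with planted changes. That run checked the code only and gives no error rate for the calls here. Positions, exons and transcripts came from GENCODE 29 and promoter windows from RefSeq (GRCh38.p14), where all 10 members matched.

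Members and lists were chosen with earlier results of these data known. Named genes were all members and, in each list, up to 6 called genes of smallest p with a mean of at least 100; others were chosen after their values were seen.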

Additional observations from a re-analysis of the deposited data

How the results depend on the processing

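Across 14 alternatives no member changed sign. PTGES, PTGS1 and PLA2G4A were called higher in all of them, with log2 differences of 1.42 to 1.55 for PTGES, 0.45 to 0.53 for PTGS1 and 0.57 to 0.64 for PLA2G4A. PTGS2 ranged from 1.31 to 1.96 and lost its call without an intensity trend. Under that setting 3 members were called, all 3 higher, and 1625 of the 20250 genes, 67.4% of them higher against 54.1% in the main analysis with 6048 called; the prior degrees of freedom fell to 1.57 from 21.2. With no filter 2595 genes were called. The count of members called lower was 1 with TMM rescaling, 1 with equal column totals, 1 with edgeR, 1 with DESeq2 and 1 with the replicate block, each time PTGES3. Leaving out 1 library at a time gave 4295 to 4757 called genes, 4 to 6 called members, 4 to 6 called higher and 0 to 1 called lower (HPGD). A group of 1 library is then assumed to vary like the other. A filter at a mean of 50 left 8 members, without PTGER2 and PTGER4, and DESeq2 gave no adjusted p for PTGER2.

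What the replicate numbers stand for is not given in the labels, and the deviations of same-numbered libraries had a correlation of 0.13 over genes. With the replicate block 8376 genes and 7 members were called, the latter including PTGES2 and PTGES3. The typical standard error (median, log2 scale) was 0.42 for genes with a mean from 10 to 30, the range of PTGER2, 0.24 from 30 to 100, the range of PTGER4 and HPGD, and 0.06 from 1000 to 10000.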

Other observations

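The members' places in the genome were compared with the values of the coding genes beside them in GENCODE 29. PTGS2 and PLA2G4A are each other's nearest coding gene on chromosome 1, on opposite strands and 148526 bases apart, and both were called higher. The gene on the other side of PTGS2, PDC, which encodes phosducin, had at most 1.93 normalised counts. BRINP3, 3108681 bases beyond PLA2G4A, had 15.5 to 26.0.

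On chromosome 9, PTGES lies 15657 bases from PRRX2, a homeobox gene, which had 93.2 and 53.3 normalised counts in vehicle and 181 and 130 in octanoate (log2 difference 1.11, limma adjusted p 0.000323). TOR1B on the other side of PTGES had a log2 difference of 0.06 (limma adjusted p 0.467). Beside PTGES2, SLC25A25, a mitochondrial carrier gene, had a log2 difference of 0.30 (limma adjusted p 0.00267). The antisense gene PTGES2-AS1, which begins 67 bases from PTGES2 on the opposite strand, had 20.6 and 19.4 normalised counts in vehicle and 30.8 and 47.7 in octanoate (log2 difference 0.91, limma adjusted p 0.0337). DAB2, an endocytic adaptor gene 1217198 bases from PTGER4, was lower (-0.21, limma adjusted p 0.0178). PRKAA1 on the other side of PTGER4, 65644 bases away, did not pass the test (-0.07, limma adjusted p 0.376). MRRF beside PTGS1 (0.05, limma adjusted p 0.589) and NACA, 24020 bases from PTGES3 (0.02, limma adjusted p 0.858), did not pass the test. ATP5F1B, nearer to PTGES3 at 17273 bases, had no row under that symbol, so its value was not read. Of 18 nearest coding neighbours that are not members, 12 were tested, and limma called 2 higher (PRRX2 and SLC25A25) and 1 lower (DAB2). Over all tested genes, 16.2% were called higher and 13.7% lower. The neighbour counts are a description only and were not tested against these shares.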
